A study of Capra hircus with 2 samples.

Results

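The 6 actin transcripts of goat back muscle are described here: the striated muscle actins ACTA1 (NM_174225) and ACTC1 (NM_001034585), the smooth muscle actins ACTA2 (NM_001034502) and ACTG2 (NM_001013592), and the cytoplasmic actins ACTB (NM_173979) and ACTG1 (NM_001033618). They were chosen by accession from the 11663 transcript accessions listed in either library, and all 6 were listed in both. The symbols are those of cattle RefSeq transcripts given with the choice of accessions, because the deposited files hold accessions only. None of the 6 accessions is in the table of goat genes used (assembly ARS1.2), which lists all 6 symbols under other accessions. Goat reads were thus counted on cattle transcripts for these actins. Whether this altered counts or coverage more for one actin than for another was not tested. Per the labels, the libraries came from longissimus thoracis, a long muscle of the back, of Chinese Xuhuai goats. The source name of each library says only goat skeletal muscle, and the sampling text of the 6-month library repeats that of the fetal one. One library represented the fetal stage, gestation day 90 of 150, with 12811117 unique reads over 11393 accessions. The other was made from muscle of goats aged 6 months, with 9144138 unique reads over 10850 accessions. No genotype or treatment is given for either stage, and neither is the number of animals per library. With 1 library per stage the spread between animals is unknown, no test across animals was possible, and intervals below cover counting error only. Marker genes of muscle or of other cell types could not be looked up by symbol, so the tissue label was not checked against them.

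Actin is the protein of thin filaments. In striated muscle, filaments of alpha actin slide along myosin to shorten the sarcomere, and ACTA1 encodes the form of mature skeletal muscle while ACTC1 encodes the form of the heart, which developing skeletal muscle also makes. ACTA2 is the actin of vascular smooth muscle and of myofibroblasts, ACTG2 is that of visceral smooth muscle, and ACTB and ACTG1 form the cytoskeleton of nearly every cell type.

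The libraries differed in which striated actin was most abundant. In fetal muscle ACTC1 and ACTA1 were of similar level, with ACTC1 the higher, whereas at 6 months nearly all actin transcript was ACTA1. Levels are given as RPKM, reads relative to transcript length and to the total of unique reads, which allows transcripts of different length to be compared. Differences are on the log2(RPKM + 1) scale, fetal minus 6-month, and a call required a difference of at least 1 log2 unit, about 2-fold, in either direction. By this rule ACTC1, ACTG1 and ACTB (3 of 6) were higher in the fetal library and ACTA1 and ACTG2 (2 of 6) were higher at 6 months, while ACTA2 differed by less. Among all 9705 accessions that reached an RPKM of 1 in a library, 35.1% were called higher in fetal muscle and 9.46% were called higher at 6 months. The median difference was 0.90 log2 units over the 6 actins and 0.61 over all accessions compared. With 6 members these counts say little about the family as a whole, and the actins are described one by one. In RNA from whole muscle, fewer cells of a type and less RNA per cell cannot be told apart, which holds for every actin below.

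**Figure D1:**
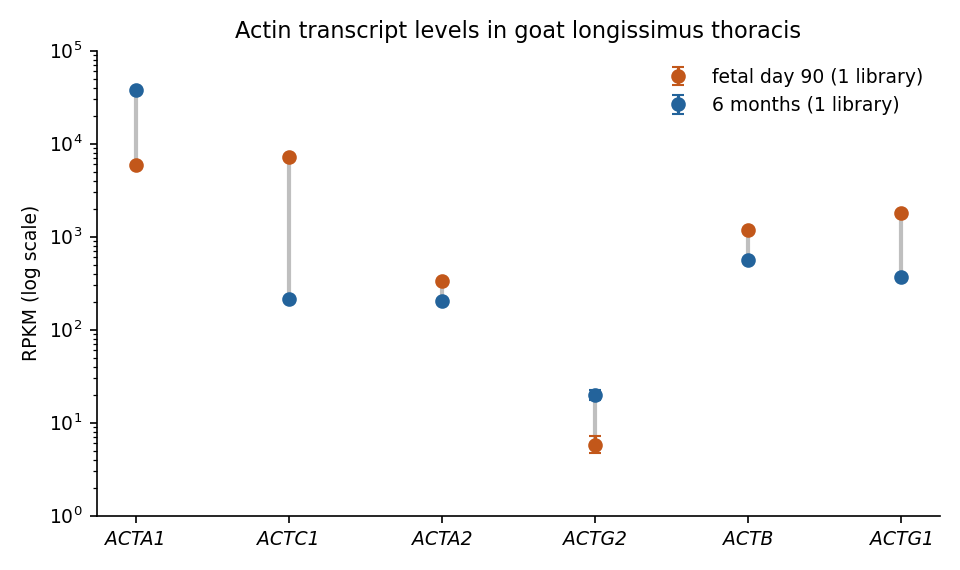
RPKM of each actin (log axis) in the fetal library (orange) and in the 6-month library (blue), with exact Poisson 95% intervals of the read count, which are mostly smaller than the points. ACTC1 lay at 7147 in fetal muscle and 214 at 6 months, and ACTA1 lay at 5857 and 37769.

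ACTA1 had 111422 reads in fetal muscle (RPKM 5857) and 512865 reads at 6 months (RPKM 37769). At 6 months it was the transcript with the most reads and the highest RPKM of all accessions. In the fetal library it ranked 15 by RPKM and 8 by reads, so it was already among the leading transcripts at day 90. Its part of all unique reads was 0.870% in the fetal library (95% exact binomial interval 0.865% to 0.875%) and 5.61% at 6 months (5.59% to 5.62%). Its part of the reads was thus 6.45-fold higher at 6 months (6.41 to 6.49), a difference of -2.69 log2 units on RPKM. Of the 9705 accessions compared, 177 others lay at least as far toward the 6-month library.

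ACTC1 had 138161 reads in fetal muscle (RPKM 7147) and 2951 reads at 6 months (RPKM 214). It ranked 7 by both RPKM and reads in the fetal library, and 354 by RPKM at 6 months. The transcript was therefore one of the most abundant at day 90 and was still clearly detected at 6 months, above 96.7% of the accessions listed there. The read share of ACTC1 was 33.4-fold higher in fetal muscle (32.2 to 34.7), a difference of 5.06 log2 units. Of the accessions compared, 25 others differed as far or farther toward the fetal library. Among the 156 other accessions that reached an RPKM of 1000 in either library, 5 did so. ACTC1 reached that level in the fetal library only.

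The balance between the striated actins can be read within each library and does not depend on how the libraries are scaled to each other. ACTC1 stood at 1.22 times the RPKM of ACTA1 in the fetal library (1.21 to 1.23) and at 0.00566 times at 6 months (0.00546 to 0.00587). Put as shares of their summed RPKM, ACTC1 made up 55.0% of striated alpha actin transcript in fetal muscle and 0.563% at 6 months. The ratio of ACTC1 to ACTA1 reads was 216-fold higher in the fetal library (normal-approximation interval on the log scale 208 to 224). The summed RPKM of both was 13004 in the fetal library and 37983 at 6 months, 2.92-fold higher at the later stage. The 6-month library thus held more striated actin transcript relative to its reads, although its ACTC1 level was lower.

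The coding sequences of actins are very alike, and the assignment of reads that match more than 1 actin was not given in the sources used here. Some reads counted for one actin may therefore stem from another, in either direction, which was not tested. The 6-month ACTC1 reads amounted to 0.575% of the ACTA1 reads of that library. The same percentage of the fetal ACTA1 reads would be 641 reads, which is 0.464% of the fetal ACTC1 reads.

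**Figure D2:**
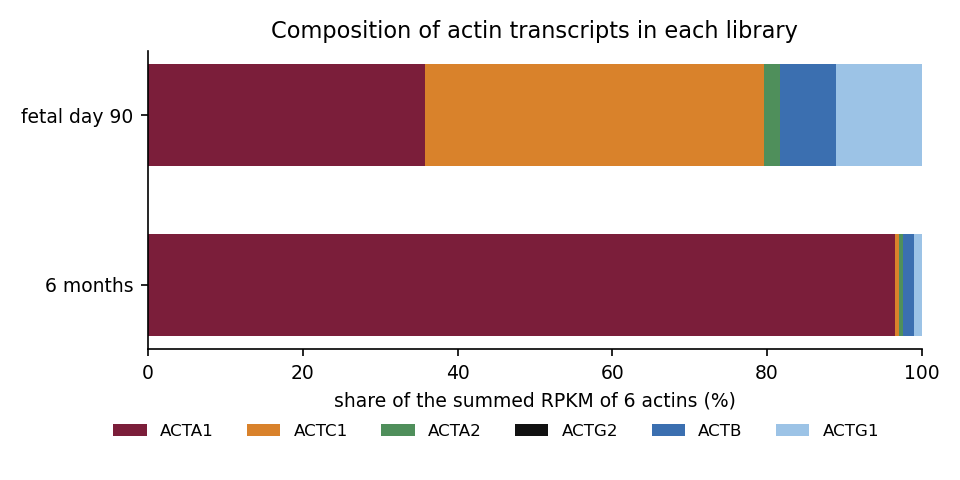
Share of the summed RPKM of the 6 actins (horizontal axis, %) taken by each actin in the fetal library (top bar) and at 6 months (bottom bar). ACTA1 and ACTC1 shared most of the fetal bar with 35.8% and 43.7%, whereas ACTA1 filled 96.5% of the 6-month bar; ACTG2, at most 0.051%, is too thin to be seen.

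Within the whole family, ACTA1 made up 35.8% of the summed RPKM in the fetal library and 96.5% at 6 months. ACTC1 made up 43.7% and 0.546%. The cytoplasmic actins together took 18.3% in fetal muscle and 2.38% at 6 months, and the smooth muscle actins took 2.09% and 0.575%. The family as a whole had a summed RPKM of 16344 in fetal muscle and 39141 at 6 months, a difference of -1.26 log2 units. In reads, the 6 actins took 2.59% of the fetal library (332331 reads) and 5.86% of the 6-month library (535515 reads). Since ACTA1 alone took 5.61% of the 6-month reads, the other 5 actins added little to the total at that stage.

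ACTA2 had 5875 reads in fetal muscle (RPKM 336) and 2559 at 6 months (RPKM 205). As a share of reads it was 1.64-fold higher in fetal muscle (1.56 to 1.72), and the difference of 0.71 log2 units did not reach the threshold. It lay close to the middle of all accessions, since 53.9% of those compared had a smaller difference. Relative to ACTA1, however, ACTA2 stood at 0.0574 times the RPKM in fetal muscle and at 0.00543 times at 6 months. Reads of ACTA2 amounted to 0.499% of the ACTA1 reads at 6 months, a proportion close to that of ACTC1. The same percentage of the fetal ACTA1 reads would be 556 reads, or 9.46% of the fetal ACTA2 reads. Fetal reads of ACTC1 were not part of this proportion.

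ACTG2 was the least abundant actin, with 96 reads in fetal muscle (RPKM 5.82) and 233 at 6 months (RPKM 19.8). As a share of reads it was 3.40-fold higher at 6 months, with a wide interval of 2.67 to 4.36 because so few reads were counted. The difference was -1.61 log2 units, in the same direction as that of ACTA1 but smaller. At these low levels it depended on the pseudocount, at -1.75 with 0.1 and -1.20 with 5. ACTG2 reads amounted to 0.0862% of the ACTA1 reads in fetal muscle and 0.0454% at 6 months. The 6-month percentage of the fetal ACTA1 reads would be 50.6 reads, or 52.7% of the fetal ACTG2 reads. This proportion leaves out ACTC1, which had 138161 fetal reads against 111422 of ACTA1. The summed RPKM of ACTA1 and ACTC1 was 2.92-fold higher at 6 months, beside the 3.40-fold of ACTG2, both without a pseudocount. ACTG2 had the higher level at the stage where ACTA1 did. Whether reads of ACTA1 or ACTC1 contributed to the ACTG2 count was not tested. Among smooth muscle actins ACTA2 predominated in both libraries, at 57.7 times the RPKM of ACTG2 in the fetal library (47.2 to 71.4) and 10.4 times at 6 months (9.06 to 11.9).

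The cytoplasmic actins were both higher in the fetal library, but not to the same degree. ACTG1 had 46959 reads in fetal muscle (RPKM 1804) and 6874 at 6 months (RPKM 370). As a share of reads it was 4.88-fold higher in fetal muscle (4.75 to 5.002), a difference of 2.28 log2 units that exceeded those of 92.5% of the accessions compared. ACTB had 29818 reads in fetal muscle (RPKM 1195) and 10033 at 6 months (RPKM 563). Its part of the reads was 2.12-fold higher in fetal muscle (2.07 to 2.17). The difference of ACTB, often used as a reference gene, was 1.08 log2 units, just past the threshold. It fell under the threshold in 4 of 8 alternative settings, at 0.51 after centring on the median ratio.

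The order of the cytoplasmic actins was reversed between the libraries. ACTB stood at 0.662 times the RPKM of ACTG1 in the fetal library (0.653 to 0.672) and at 1.52 times at 6 months (1.48 to 1.57). ACTG1 thus made up 60.2% of cytoplasmic actin transcript at day 90 and 39.6% at 6 months. This comparison lies within each library and is free of the scaling between them. Their summed RPKM was 2999 in the fetal library and 933 at 6 months, 3.21-fold higher at the earlier stage. ACTA2 differed less than either between the libraries, and it stood at 0.186 times the RPKM of ACTG1 in the fetal library and 0.555 times at 6 months.

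Ordered by RPKM, the fetal library ran ACTC1, ACTA1, ACTG1, ACTB, ACTA2 and ACTG2. The 6-month library ran ACTA1, ACTB, ACTG1, ACTC1, ACTA2 and ACTG2. Counting error separated all neighbours in the fetal order, as the Poisson intervals of their RPKM did not overlap. At 6 months ACTC1 (206 to 222) and ACTA2 (197 to 213) overlapped, and their RPKM ratio was 1.04 (0.988 to 1.10). In fetal muscle the same ratio was 21.3. The other neighbours at 6 months had intervals that did not overlap.

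**Figure D3:**
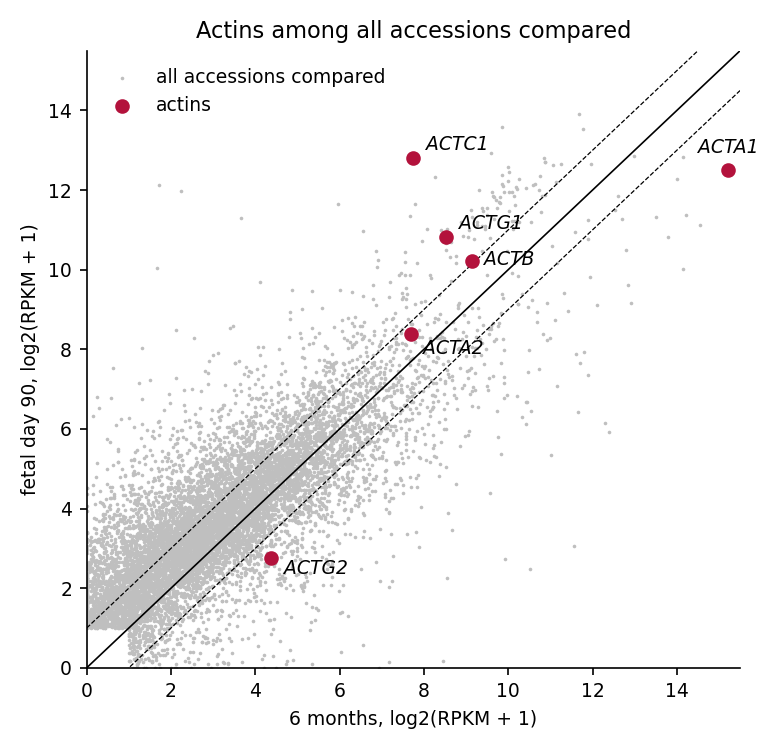
Log2(RPKM + 1) at 6 months (horizontal) and in the fetal library (vertical) for the 9705 accessions compared (grey) and the 6 actins (red), with the line of equal level and dashed lines at a difference of 1. ACTC1 lies far above the upper dashed line and ACTA1 is the rightmost point, while ACTA2 lies between the dashed lines.

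Calls were more frequent among accessions with a high RPKM in either library. Choosing accessions by their higher level itself favours those that differ, so these shares do not describe abundance alone. All actins but ACTG2 reached an RPKM of at least 100 in a library. Of the 965 accessions at that level, 37.6% were called higher in fetal muscle and 29.4% at 6 months. Of the 157 accessions that reached an RPKM of 1000, among them ACTA1, ACTC1, ACTB and ACTG1, 57.3% were called higher in fetal muscle and 31.8% at 6 months. A call was thus common among accessions chosen in this way. ACTC1, ACTB and ACTG1 reached 1000 in the fetal library only, and ACTA1 in both. Differences as large toward the fetal library as that of ACTG1 were found for 31 of the other 156 accessions at this level, and as large toward 6 months as that of ACTA1 for 28.

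RPKM is relative to each library's read total, and the 8201 accessions that reached 1 in both had a median log2 ratio of 0.58 toward the fetal library. Relative to that shift, ACTC1 differed by 4.48, ACTG1 by 1.71, ACTB by 0.51 and ACTA2 by 0.13 log2 units, and ACTA1 and ACTG2 by -3.27 and -2.16. After this centring ACTC1 and ACTG1 were called higher in fetal muscle, where 22.3% of accessions were, and ACTA1 and ACTG2 at 6 months, where 17.2% were. The direction of each actin was the same under all 8 alternative settings of pseudocount and scaling. A pseudocount cannot reverse a direction. Every scaling moved the differences toward 6 months, so ACTA1 and ACTG2 could not reverse. The largest shift, 0.58 log2 units, was less than the 0.71 of ACTA2, the smallest difference toward the fetal library. ACTA2 came close to no difference after centring, and ACTB no longer counted as higher in the fetal library. Library totals taken without the 6 actins moved every log2 ratio of RPKM by -0.05, and totals without ACTA1 alone moved it by -0.07.

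**Figure D4:**
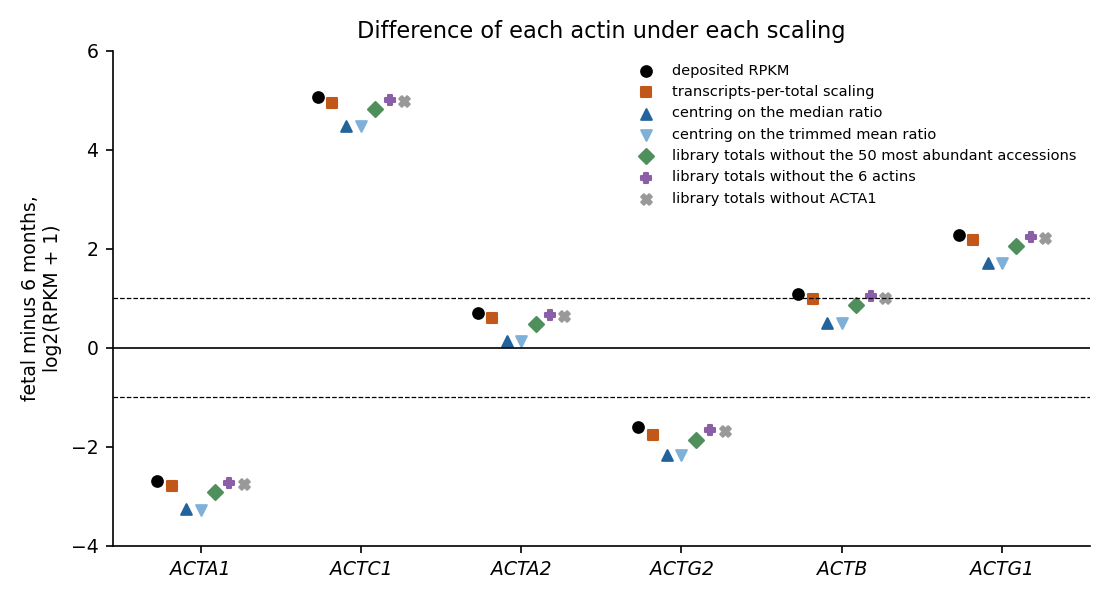
Difference in log2(RPKM + 1), fetal minus 6 months, for each actin on the deposited RPKM (black) and under 6 other scalings (colours), with dashed lines at the threshold of 1. Each actin keeps its side of 0, and ACTB is the one that crosses the threshold, from 1.08 to as low as 0.50.

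Coverage, the percentage of a transcript's bases with at least 1 read, was nearly the same in both libraries for every actin, although their depth differed widely. ACTA1 was covered over 99.87% of its 1485 bases in the fetal library and 99.93% at 6 months. ACTC1, of 1509 bases, was covered over 92.45% and 91.05%, while its depth, at a read span of 90 bases, was 8240 and 176 read bases per base. The bases of ACTC1 without a read numbered 114 in the fetal library and 135 at 6 months, so part of the listed transcript was not covered even at the higher depth. ACTG1, of 2032 bases, lacked 253 bases in the fetal library and 258 at 6 months. ACTB, of 1948 bases, lacked 156 and 162. ACTA2, of 1364 bases, was covered over 98.02% and 97.43%.

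ACTG2, of 1287 bases, was covered over 87.26% in the fetal library and 87.33% at 6 months from far fewer reads, 6.71 and 16.3 read bases per base. The reads counted for ACTG2 thus touched most of the transcript, 1123 and 1124 bases. Coverage does not tell which actin these reads stem from, since reads of another actin assigned to ACTG2 would count toward it. Which bases were covered is not given. The 1261 other accessions within 25% of its fetal depth had a median coverage of 76.7%, and 1028 of them were covered less than ACTG2. At 6 months the 908 accessions of like depth had a median of 85.1%, and 514 were covered less. For ACTC1 the median of accessions at like depth was 93.7% in the fetal library (11 accessions) and 91.4% at 6 months (156 accessions), close to its own values. ACTG1 was below the median of its like, 91.7% in the fetal library (29 accessions) and 91.01% at 6 months (95 accessions).

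**Figure D5:**
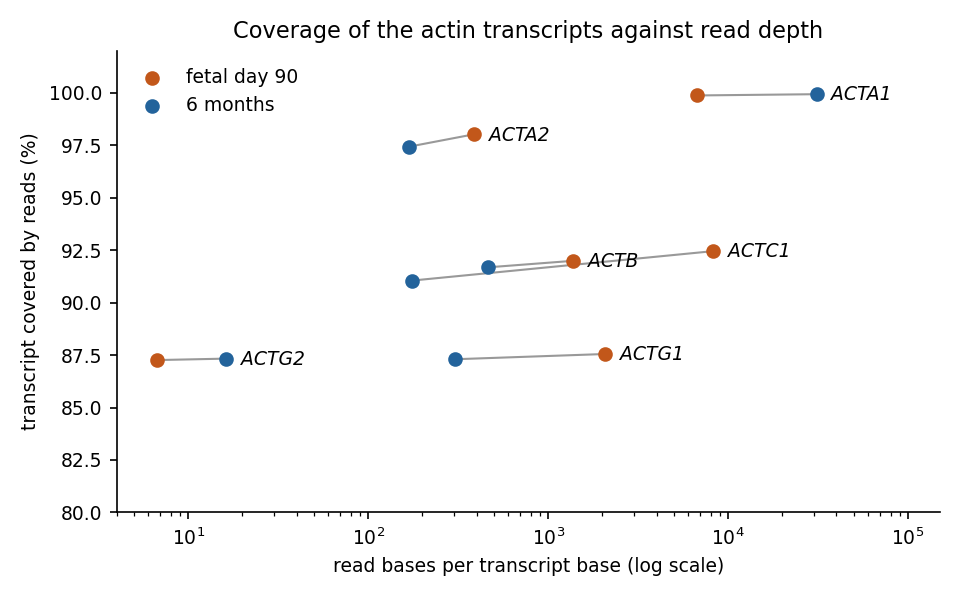
Percentage of each actin transcript covered by reads (vertical) against read bases per transcript base (horizontal, log axis) in the fetal library (orange) and at 6 months (blue), with a line joining the same actin. The lines are nearly flat, with ACTC1 at 92.45% and 91.05% for depths of 8240 and 176.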

How the data were processed

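For each of 2 libraries the authors listed RefSeq transcript accessions with the unique read count, length, coverage in percent and RPKM, per the file headers. The authors' read counts were whole numbers that summed to the header totals of 12811117 and 9144138, and the deposited RPKM was recovered from count, length and total within 1 part in 1000000. Per the labels' protocols, Trizol was used for RNA extraction and Illumina's standard procedure for the libraries. The aligner, strand use, genome build, transcript set and handling of reads shared by several actins were not given in the sources used here. In the labels, the sampling text of the 6-month library repeats that of the fetal one.

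From these values, differences in log2(RPKM + 1), which understate the change of low transcripts, were computed over all accessions that reached an RPKM of 1 in a library. Ratios of read shares had exact conditional binomial (Clopper-Pearson) 95% intervals, as had ratios of RPKM within a library, and RPKM had exact Poisson intervals. PCR duplicates are not separate molecules, so these cover counting error only. Members, lists and tests were chosen with earlier results of these data known. The rule for named genes took all 6 actins and, where a table gave a symbol, the transcript nearest to each in level. With 0 of 11663 accessions found in the goat table, no other gene was named and lists of thin filament partners, actin turnover genes, crosslinkers, SRF pathway genes and cell type markers could not be used. No sequence is shown. Alternatives covered pseudocounts of 0.1 and 5, the RPKM minimum, the threshold, the scaling and the quantity summed over the family. Totals without ACTA1 were chosen after seeing the data. Calculations used SciPy 1.17.1, NumPy 2.4.6 and pandas 2.3.3 under Python 3.11.15, and plots used matplotlib 3.10.9.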

Additional observations from a re-analysis of the deposited data

How the results depend on the processing

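No paired analysis was possible because each stage had 1 library, and no library could be left out. Every actin kept its direction under all 8 settings of pseudocount and scaling. A pseudocount cannot reverse a direction, and every scaling moved the differences toward 6 months, so ACTA1 and ACTG2 could not reverse. ACTB lost its call with transcripts-per-total scaling (0.98), totals without the 50 most abundant accessions (0.85) and both centrings (0.51 and 0.50), which left 2 actins higher in the fetal library. At a threshold of 2 log2 units, 2 actins were higher in the fetal library and 1, ACTA1, was higher at 6 months. The difference of the actin family total, -1.26 on the deposited RPKM, was -1.37 with transcripts-per-total scaling, -1.84 with either centring, -1.49 without the 50 most abundant accessions, -1.31 without the actins and -1.33 without ACTA1. Summed over reads in place of RPKM, the fetal shares of ACTA1 and ACTC1 were 33.5% and 41.6%, and ACTA1 took 95.8% at 6 months. Summed over reads per covered length, the fetal shares were 33.9% and 44.7% and the 6-month shares 96.2% and 0.598%. With the 4 muscle actins as the total, the fetal shares were 43.9% and 53.6%, and ACTA1 took 98.9% at 6 months. Over all 9705 accessions compared, calls in the fetal library went from 3411 to 1811 with a pseudocount of 5, and to 2162 and 2157 with the centrings. Calls at 6 months went from 918 to 1674 and 1678 with the centrings. Depth limits ACTG2 most, as it rests on 96 and 233 reads.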
